A study of Mus musculus with 12 samples.

Results

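The genes described here encode 10 adhesion and scaffold proteins of the contact between Schwann cells and axons: Nfasc, Gldn, Nrcam, Cadm1, Cadm2, Cadm3, Cadm4, Cntn1, Cntn2 and Epb41l2. They were chosen by symbol, through the mouse Ensembl identifiers of the count table, and all 10 were found among its 25700 genes and passed the filter on low counts that left 18597 genes. Schwann cells (SCs) were sorted from dissociated sciatic nerves at postnatal day 5 (P5), when myelin formation has begun, and each of the 12 libraries was made from the dissociated nerves of a single mouse. The gates were allSC (every cell with eYFP), mSC (cells with high side scatter, SSC-A, enriched in myelinating SCs) and nmSC (cells with low side scatter, enriched in SCs that are not myelinating), with 4 libraries each, numbered by mouse 1 to 4. All mice carried a Cre recombinase transgene active in the Schwann cell lineage (-/+), together with the reporters ReYFP (Tg/+) and βAct-DsRed (Tg/+), on the C57bl/6J background, so there was no group without Cre, and the eYFP gate holds only cells in which, or in whose ancestors, the Cre had acted. Side scatter enriches and does not purify, and in these bulk libraries a smaller share of cells of a type and less RNA per cell cannot be told apart. Mice of both sexes were used, and which mouse was of which sex is not in the labels.

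A myelinated axon is divided into domains by its Schwann cells. At the node of Ranvier, microvilli of the Schwann cell face the excitable axon membrane; at the flanking paranodes glial loops are anchored to the axon by a complex of glial neurofascin with axonal contactin and its partner Caspr; and along the internode the inner Schwann cell membrane is held to the axon by proteins of the Cadm family, also called nectin-like or SynCAM proteins. Gliomedin, the product of Gldn, is carried by the microvilli and gathers sodium channels at the node through neurofascin and NrCAM. Many of these genes are also used by neurons, with isoforms of their own, and the counts analysed here sum all isoforms of a gene, so the glial and axonal forms of neurofascin were not separated.

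The genes lie on different chromosomes of the GRCm38 mouse genome, apart from 2 groups. Nfasc (ENSMUSG00000026442, chr1:132564690-132741797, minus strand) and Cntn2 (ENSMUSG00000053024, chr1:132509427-132543256, minus strand) are neighbours, 21433 bases apart, and Cadm3 (ENSMUSG00000005338, chr1:173333258-173367695, minus strand) is on the same chromosome. Gldn (ENSMUSG00000046167, chr9:54286486-54341786) and Cadm1 (ENSMUSG00000032076, chr9:47530173-47857637) share chromosome 9, both on the plus strand. Nrcam is ENSMUSG00000020598 (chr12:44328885-44601964, plus strand), Cadm4 is ENSMUSG00000054793 (chr7:24482023-24504539, plus strand) and Cadm2 is ENSMUSG00000064115 (chr16:66655421-67620908, minus strand). Cntn1 is ENSMUSG00000055022 (chr15:92051165-92341967, plus strand) and Epb41l2 is ENSMUSG00000019978 (chr10:25359798-25523519, plus strand). Cadm3 shares 361 exon bases, 4.98% of its own, with Ackr1, and Cadm2 shares 256, 2.61% of its own, with 1700010K23Rik on the opposite strand, and reads from such bases cannot be assigned from the counts alone. The other members share no exon bases with an annotated gene.

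The RefSeq promoter table (GRCm38.p6) held 12 windows for 9 of the 10 members, each from 250 bases before to 50 bases after a transcript start. Shown are the 250 bases upstream of Gldn and Cadm3, which were among the members that rose most in mSC, and of Cadm2 and Cadm4, the relatives of Cadm3 that differed less between mSC and nmSC, 5′ to 3′ on the strand of the gene. All of these windows lie outside the span of their gene and hold no annotated exon base. Capitals mark the letters CATTCC, a core of the binding sites of TEAD factors, here on the opposite strand.
Gldn, chr9:54286236-54286485, plus strand: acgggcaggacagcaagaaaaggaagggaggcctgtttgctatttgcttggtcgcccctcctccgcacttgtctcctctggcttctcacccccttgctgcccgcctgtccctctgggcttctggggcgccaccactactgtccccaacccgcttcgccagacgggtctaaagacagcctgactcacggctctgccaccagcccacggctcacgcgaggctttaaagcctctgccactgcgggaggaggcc
Cadm3, chr1:173367696-173367945, minus strand: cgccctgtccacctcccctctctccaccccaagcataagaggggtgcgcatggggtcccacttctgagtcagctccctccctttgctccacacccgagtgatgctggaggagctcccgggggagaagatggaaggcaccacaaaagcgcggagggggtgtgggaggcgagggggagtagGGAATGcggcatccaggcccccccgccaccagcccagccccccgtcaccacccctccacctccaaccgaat
Cadm2, chr16:67620909-67621158, minus strand: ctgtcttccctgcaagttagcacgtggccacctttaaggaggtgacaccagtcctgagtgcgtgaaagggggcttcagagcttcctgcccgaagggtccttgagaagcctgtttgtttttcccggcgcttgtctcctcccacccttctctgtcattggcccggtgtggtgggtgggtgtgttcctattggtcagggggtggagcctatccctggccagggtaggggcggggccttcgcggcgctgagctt
Cadm4, chr7:24481773-24482022, plus strand: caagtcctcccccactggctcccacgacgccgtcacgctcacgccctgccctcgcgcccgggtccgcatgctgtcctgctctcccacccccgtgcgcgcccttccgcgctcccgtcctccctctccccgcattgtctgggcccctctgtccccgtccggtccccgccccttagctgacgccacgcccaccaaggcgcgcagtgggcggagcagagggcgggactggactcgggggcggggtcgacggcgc
CATTCC was found on either strand in 3 of the 12 windows: once for Cadm3, 71 bases before the start, and once each for Nfasc and Cntn1, 21 and 27 bases after a start. It occurs in 14.7% of all 32851 promoter windows. The letters ACAAAG, a core of SOX sites (18.7% of all windows), and GCGNGGGCG, a core of EGR sites (5.55% of all windows), were in 0 of the 12. The windows above differ in base composition: that of Cadm4 has 75.2% G and C and 30 CpG pairs, that of Cadm3 66.8% and 11, that of Gldn 63.6% and 13, and that of Cadm2 60.8% and 10.

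The libraries held between 8180927 and 16918122 counted reads, and 3 counts, the smallest value taken as detected, corresponded to 0.177 to 0.367 CPM (counts scaled to a common library total) before normalisation. Levels below are CPM normalised by the trimmed mean of M values (TMM). The Schwann cell gene Sox10 had a mean of 267 CPM in mSC, 266 in nmSC and 267 in allSC. Of the myelin genes, Pmp22 had a mean of 78430 CPM in mSC and 6439 in nmSC, Prx 5546 and 1721, Ncmap 2024 and 186, and Drp2 831 and 17.3, and the summed immature and proliferation markers (Ngfr, Ncam1, Sox2, Mki67 and Top2a) were at 130.1 to 175 in mSC and 1180.0 to 1573 in nmSC. Markers of other cells were low, with none of their genes at 0 in every library. The endothelial genes Pecam1, Cldn5, Cdh5 and Kdr summed to 19.7 to 28.5 CPM in mSC and 6.07 to 11.5 in nmSC, of which Kdr made up a mean of 20.3 and 5.90. The immune genes (Ptprc, Cd68, Csf1r and Cd3e) summed to 13.6 to 23.3 and 19.7 to 30.6, the fibroblast genes (Pdgfra, Dcn, Lum and Cd34) to 12.4 to 44.2 and 12.7 to 19.4, and the mural genes (Acta2, Rgs5 and Myh11) to 3.39 to 6.99 and 5.91 to 6.73. The neuronal genes Snap25, Syt1, Rbfox3, Elavl4 and Syn1 summed to 7.81 to 11.6 and 8.17 to 10.3.

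One library stood apart from its gate. In mSC replicate 4, genes with long transcripts (at least 2612 bases, 2351 genes) were lower relative to the other mSC libraries than genes with short ones (at most 1239 bases, 2350 genes), with a median difference between these sets of -0.79 on the log2 scale; in mSC replicate 1 it was 0.55, and in the remaining 10 libraries it was between -0.07 and 0.18. The library had 10777161 counts against 13939538 to 16918122 in the other mSC libraries, 2.04% of its counts were mitochondrial against 1.42% to 1.60%, the summed fibroblast genes were at 44.2 CPM against 12.4 to 15.8, and the summed neuronal genes were at 11.6 CPM against 7.81 to 8.96. Since several members have long transcripts, results are also given without this library, and their values with the length trend of each library removed are given with the effects of the processing. The part of these differences in the results was otherwise not tested.

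To ask how the axoglial genes differ between the enriched populations, mSC was compared with nmSC. All 10 members passed the test, 7 higher and 3 lower in mSC, against 20.4% and 20.2% of all tested genes (edgeR quasi-likelihood test, Benjamini-Hochberg adjusted p under 0.05). Their median log2 fold change was 1.82, and that of all tested genes was -0.16. Nfasc, Gldn and Cadm3 had the largest increases, 11.5-, 11.3- and 10.95-fold on the mean CPM, and Cadm1 had the largest decrease, 6.66-fold. For Cadm4 the mSC and nmSC libraries overlapped, and its call was lost without mSC replicate 4, when 6 members were higher and 3 lower.

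**Figure D1:**
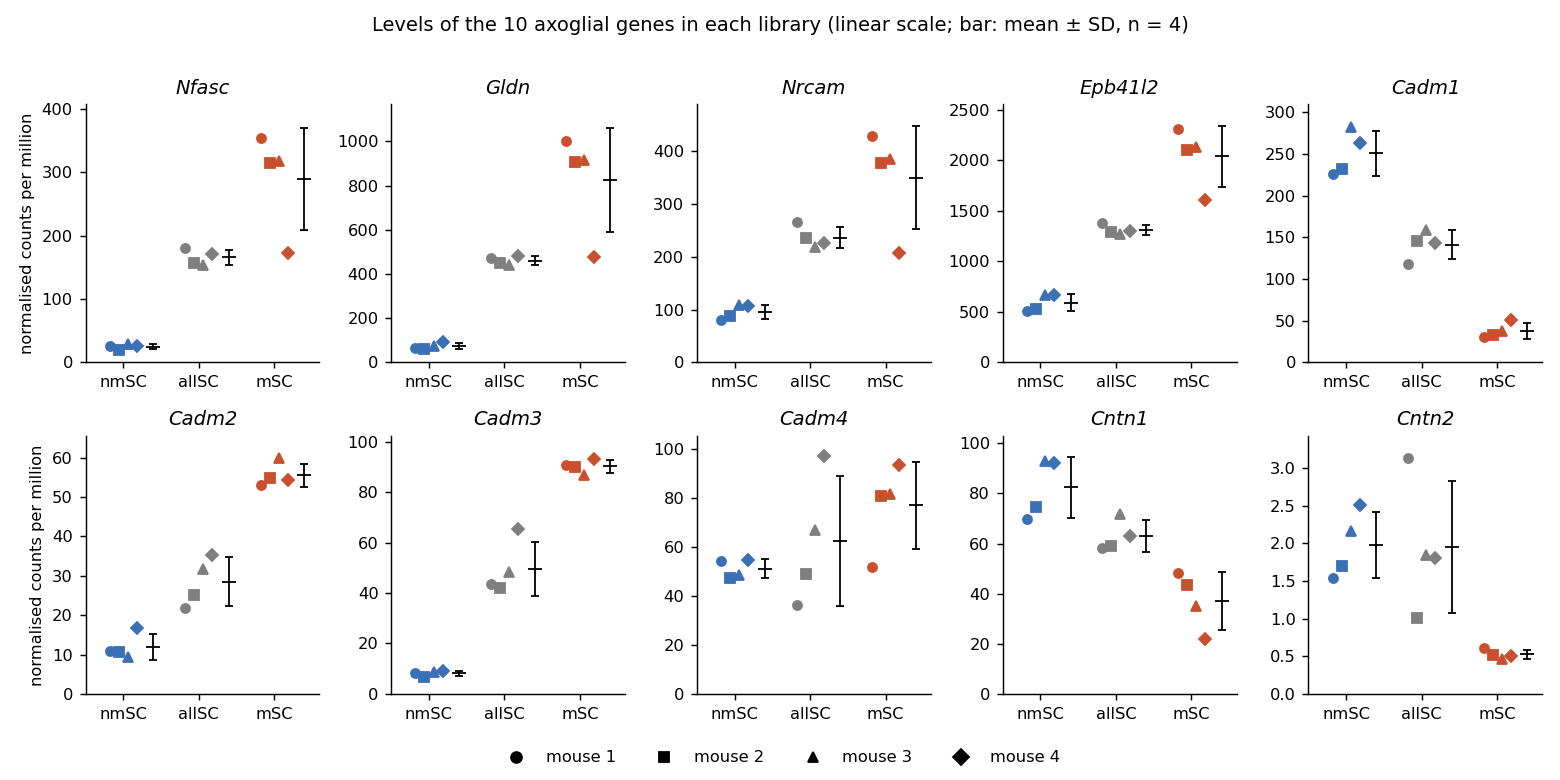
Level of each gene in the 12 libraries, in TMM-normalised CPM on linear axes that start at 0. Points are libraries, their shapes the 4 mice and their colours the gates, and bars are the mean ± SD of 4 libraries; the allSC points mostly lie between the other gates, and mSC replicate 4 (red diamond) is the lowest mSC library for Nfasc, Gldn, Nrcam, Epb41l2 and Cntn1.

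Gldn encodes the nodal organiser gliomedin. Its level was 1001, 908, 916 and 478 CPM in mSC of mice 1 to 4, 67.3, 59.8, 73.0 and 93.0 CPM in nmSC, and 474, 448, 440.3 and 480.4 CPM in allSC. No mSC library overlapped with nmSC, and the lowest mSC library was 5.14 times the highest nmSC library. Relative to nmSC it was higher in mSC by 3.49 ± 0.20 on the log2 scale (SE, adjusted p = 6.18e-11), and by 3.69 ± 0.13 without mSC replicate 4. In mSC of mouse 4 the level was 0.507 times the mean of the other mSC libraries and lay within the range of allSC, so that mSC and allSC overlapped for this gene.

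Nfasc encodes neurofascin, whose glial form anchors the paranodal loops and whose neuronal form sits in the nodal axon membrane. Its level was 354, 315, 319 and 172 CPM in mSC, 26.4, 20.01, 28.6 and 25.4 CPM in nmSC, and 180.2, 157, 154 and 172 CPM in allSC. The lowest mSC library was 6.01 times the highest nmSC library. On the log2 scale the change was 3.53 ± 0.19 (SE, adjusted p = 3.56e-11), and 3.72 ± 0.13 without mSC replicate 4. As with Gldn, the library of mouse 4 was low in mSC, at 0.523 times the mean of the others.

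Nrcam encodes a relative of neurofascin found at nodes, bound to axons and also carried and released by Schwann cells. It was measured at 428, 377, 384 and 207 CPM in mSC, 81.0, 88.2, 109 and 106 CPM in nmSC, and 265, 235, 218 and 225 CPM in allSC. Again mSC and nmSC did not overlap. The nmSC level was well above the floor, as were those of Gldn and Nfasc, and the log2 fold change of Nrcam was 1.86 ± 0.18 (SE, adjusted p = 8.96e-08). Without mSC replicate 4 it was 2.05 ± 0.12.

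Ratios of 2 genes within a library do not depend on the scaling between libraries, so 6 pairs were compared between the 4 mSC and 4 nmSC libraries by a two-sided exact permutation test, whose smallest possible p is 0.0286. The ratio of Nfasc to Nrcam, on the log2 scale, was -0.27, -0.26, -0.27 and -0.26 in mSC, -1.62, -2.14, -1.92 and -2.06 in nmSC, and -0.55, -0.58, -0.50 and -0.39 in allSC. Its SD over the mSC libraries was 0.0054, and mSC replicate 4, in which both genes were low, had the ratio of the other mSC libraries. The mean difference between mSC and nmSC was 1.67 (exact p = 0.0286, 0.0343 after adjustment over the 6 pairs). The ratio of Gldn to Nrcam behaved alike, at 1.23, 1.27, 1.25 and 1.21 in mSC and -0.27, -0.56, -0.57 and -0.19 in nmSC, a difference of 1.64 (exact p = 0.0286, adjusted 0.0343). Thus Nfasc and Gldn differed more between the gates than Nrcam in each mouse. When the mice were taken as pairs, the smallest p that 4 pairs allow is 0.125, which both ratios had.

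**Figure D2:**
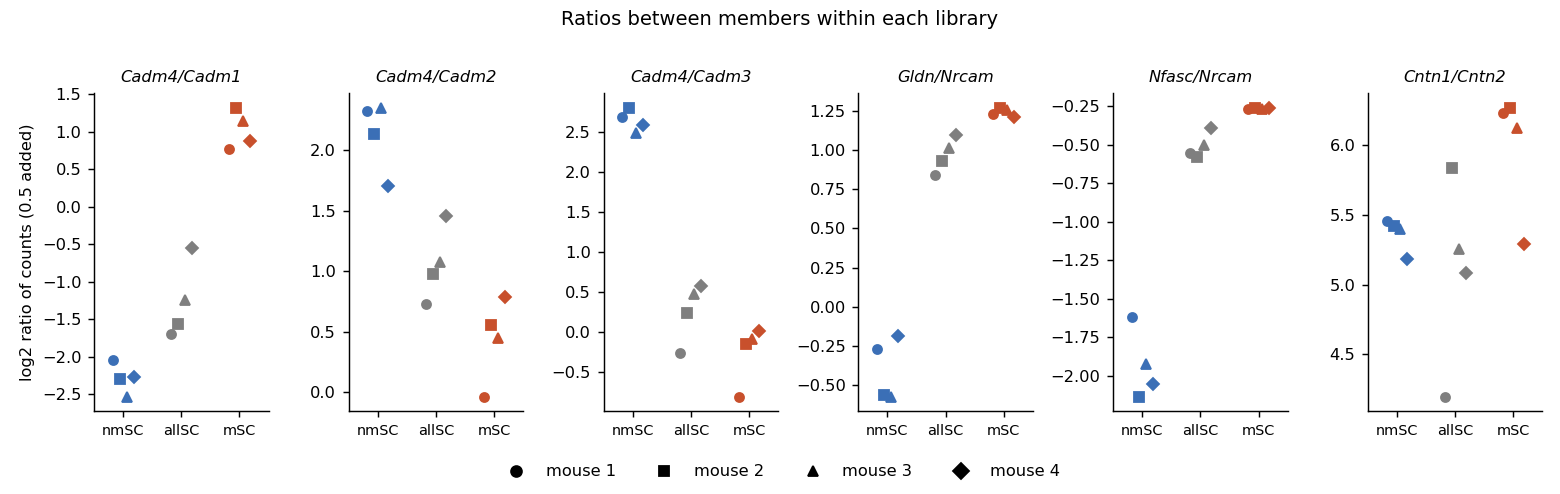
Ratio of the counts of 2 members within each library, on the log2 scale with its own axis for each pair. Points are libraries, shapes the mice and colours the gates; the 4 mSC points of Nfasc/Nrcam lie between -0.27 and -0.26, and only Cntn1/Cntn2 overlaps between mSC and nmSC.

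Epb41l2 encodes a scaffold of the membrane skeleton that helps to place adhesion proteins in the Schwann cell membrane. It had the highest CPM of the members in every library, at 2307, 2104, 2135 and 1607 CPM in mSC, 506, 531, 667 and 665 CPM in nmSC, and 1379, 1290.0, 1272 and 1299 CPM in allSC. No 2 gates overlapped. From nmSC to mSC it rose by 1.78 ± 0.14 on the log2 scale (SE, adjusted p = 2.84e-09), and by 1.89 ± 0.11 without mSC replicate 4, in which the gene was at 0.737 times the mean of the other mSC libraries.

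The Cadm genes, whose products bind each other across the internodal gap, moved in both directions. Cadm3, known mainly as the axonal partner of Cadm4, was at 90.98, 90.0, 87.0 and 93.2 CPM in mSC, 8.46, 6.73, 8.68 and 9.10 CPM in nmSC, and 43.5, 41.9, 48.3 and 65.3 CPM in allSC. The SD of the mSC libraries was 2.54 CPM, with mSC replicate 4 at 1.04 times the mean of the others, and the lowest was 9.56 times the highest nmSC library. Its log2 fold change was 3.45 ± 0.16 (SE, adjusted p = 5.07e-12). It was 3.44 without mSC replicate 4. Cadm3 shares exon bases with Ackr1, as given above.

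Cadm2, another member known from axons, had 53.0, 54.9, 59.8 and 54.3 CPM in mSC, 10.9, 10.7, 9.50 and 16.7 CPM in nmSC, and 21.9, 24.99, 31.8 and 35.3 CPM in allSC. All 3 gates were separate, and on the linear scale the mean CPM of allSC was nearer to that of nmSC. On the log2 scale Cadm2 was at 0.96 in mSC against allSC and at -1.25 in nmSC against allSC, so there allSC was nearer to mSC. Its log2 fold change from nmSC to mSC was 2.21 ± 0.18 (SE, adjusted p = 1.10e-08), and 2.22 without mSC replicate 4.

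Cadm1 went the other way. This adhesion molecule of many epithelia and synapses was at 30.3, 32.4, 37.1 and 50.8 CPM in mSC, 226, 232, 282 and 263 CPM in nmSC, and 118, 146, 159 and 143 CPM in allSC. The highest mSC library, replicate 4, was still far below the lowest nmSC library. This was a log2 fold change of -2.74 ± 0.16 (SE, adjusted p = 1.02e-10), and -2.91 without mSC replicate 4.

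Cadm4, the Schwann cell receptor for axonal Cadm proteins along the internode, was at 51.7, 81.0, 81.8 and 93.7 CPM in mSC, 54.5, 47.2, 48.7 and 54.6 CPM in nmSC, and 36.3, 49.2, 67.1 and 97.4 CPM in allSC. The allSC libraries spanned the range of both other gates, and mSC of mouse 1 lay below nmSC of the same mouse, so mSC was higher in 3 of 4 mice. In the test it had a log2 fold change of 0.59 ± 0.23 (SE, adjusted p = 0.0494). It fell short of the threshold in 11 of 18 alternative settings, among them the fit without mSC replicate 4 (0.48, adjusted p = 0.0872) and scaling by library size alone (0.005, adjusted p = 0.986). With the mouse as a block it passed (0.54, adjusted p = 0.0350).

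Because levels of different genes are comparable only per length, the share of each Cadm gene was taken in the summed RPKM of the family (normalised CPM per kilobase of the union of exons). The sum itself was 57.4 ± 9.12 RPKM (SD, n = 4) in mSC, 50.1 ± 3.20 in nmSC and 52.2 ± 15.1 in allSC, but its makeup differed. Cadm1 made up 6.27% ± 0.846 of it in mSC and 47.9% ± 3.40 in nmSC, and Cadm3 made up 22.2% ± 3.98 and 2.26% ± 0.168. Cadm2 held 10.04% ± 1.57 and 2.42% ± 0.552, and Cadm4, the most abundant of the family in mSC by this measure, 61.5% ± 5.43 and 47.4% ± 3.19. In allSC the shares were 27.1% for Cadm1, 5.65% for Cadm2, 13.5% for Cadm3 and 53.8% for Cadm4. Each of the 4 shares differed between mSC and nmSC (two-sided exact permutation test, p = 0.0286 each, unchanged by adjustment over the 4). For Cadm4 the call was lost in 4 of 9 alternatives, those that left out an nmSC library (exact p = 0.0571 each), and it was lost in 0 of 9 for the other shares. The shares are not independent, since they sum to the whole. With mean transcript length in place of the union of exons, Cadm1 had 69.4% and Cadm4 25.7% in nmSC, and 12.04% and 44.2% in mSC. The nmSC libraries of these 2 genes thus overlapped with the union of exons and were far apart with mean transcript length.

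**Figure D3:**
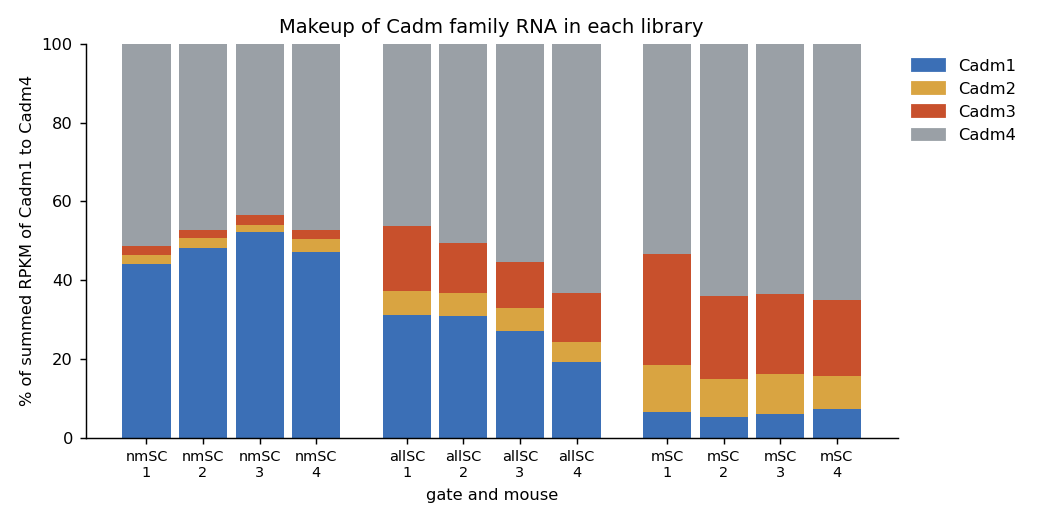
Share of each Cadm gene in the summed RPKM of Cadm1 to Cadm4, in percent, for each library (gate and mouse number below each bar). In nmSC nearly the whole bar is Cadm1 and Cadm4, with Cadm2 and Cadm3 at 2.42% and 2.26% on average, while in mSC Cadm1 is at 6.27%.

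The same contrast between members shows in the ratios within libraries. Cadm4 to Cadm1, on the log2 scale, was 0.77, 1.318, 1.14 and 0.88 in mSC and -2.05, -2.30, -2.53 and -2.27 in nmSC, a difference of 3.31. Cadm4 to Cadm3 was -0.81, -0.15, -0.09 and 0.01 in mSC and 2.68, 2.80, 2.48 and 2.58 in nmSC, a difference of -2.90, and for Cadm4 to Cadm2 the difference was -1.69. All 3 had an exact p of 0.0286, adjusted 0.0343 over the 6 pairs, and 0.125, the smallest possible, with the mice as pairs.

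The contactins were both lower in mSC. Cntn1, which pairs with Caspr on the axon side of the paranode, was at 48.3, 43.5, 35.1 and 22.0 CPM in mSC, 69.6, 74.6, 93.1 and 92.2 CPM in nmSC, and 58.1, 59.2, 71.9 and 63.1 CPM in allSC. Every mSC library was below every library of the other gates. Its log2 fold change against nmSC was -1.14 ± 0.19 (SE, adjusted p = 7.17e-05). Without mSC replicate 4, where the gene was at 0.520 times the mean of the other mSC libraries, it was -0.96 ± 0.14.

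Cntn2, known as TAG-1 and found at the juxtaparanode on both glia and axon, was near the limit of detection. It had 9, 6, 6 and 4 counts in mSC, 16, 20, 29 and 38 in nmSC, and 43, 15, 24 and 18 in allSC. In CPM it was at 0.612, 0.522, 0.466 and 0.4995 in mSC and 1.54, 1.70, 2.17 and 2.51 in nmSC, with no overlap, and at 3.13, 1.005, 1.85 and 1.81 in allSC. Its log2 fold change against nmSC was -1.90 ± 0.41 (SE, adjusted p = 0.00102), and -1.87 without mSC replicate 4. The ratio of Cntn1 to Cntn2 overlapped between the gates, with a difference of 0.61 (exact p = 0.114), and without mSC replicate 4 it was 0.84 (exact p = 0.0286).

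Against allSC, the sorted mixture of every cell with eYFP, 6 members were higher and 3 lower in mSC (8.76% and 8.8% of all tested genes). Comparisons with allSC share their mSC or nmSC libraries with the comparison above. The log2 fold changes (edgeR) were 0.96 for Cadm2 (adjusted p = 0.00064), 0.86 for Cadm3 (0.000303), 0.84 for Gldn (0.00308), 0.81 for Nfasc (0.00313), 0.64 for Epb41l2 (0.00212) and 0.56 for Nrcam (0.0317). For Gldn, Nfasc and Nrcam the mSC and allSC libraries overlapped, through mSC replicate 4, without which the log2 fold changes of these genes were 1.06, 1.01 and 0.78. The call for Nrcam was lost in 10 of 18 alternative settings, with the mouse as a block among them (0.54, adjusted p = 0.0560). Cadm1 (-1.91), Cntn1 (-0.75) and Cntn2 (-1.86) were lower in mSC, with adjusted p of 4.97e-08, 0.00843 and 0.00329. Cadm4 did not pass, at 0.30 ± 0.23 (SE, adjusted p = 0.382).

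In nmSC against allSC, 1 member was higher and 6 were lower (2.83% and 7.54% of all tested genes). Cadm1 was higher by 0.83 ± 0.15 (SE, edgeR adjusted p = 0.00104). The decreases, on the log2 scale, were -2.72 for Nfasc, -2.65 for Gldn, -2.59 for Cadm3, -1.30 for Nrcam, -1.25 for Cadm2 and -1.15 for Epb41l2, with adjusted p between 1.22e-09 and 9.41e-05. Cntn1 was higher in nmSC in all 4 mice without passing the test (0.39 ± 0.18, adjusted p = 0.237), Cadm4 had -0.28 ± 0.23 (adjusted p = 0.554) and Cntn2 0.03 ± 0.35 (adjusted p = 0.979).

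**Figure D4:**
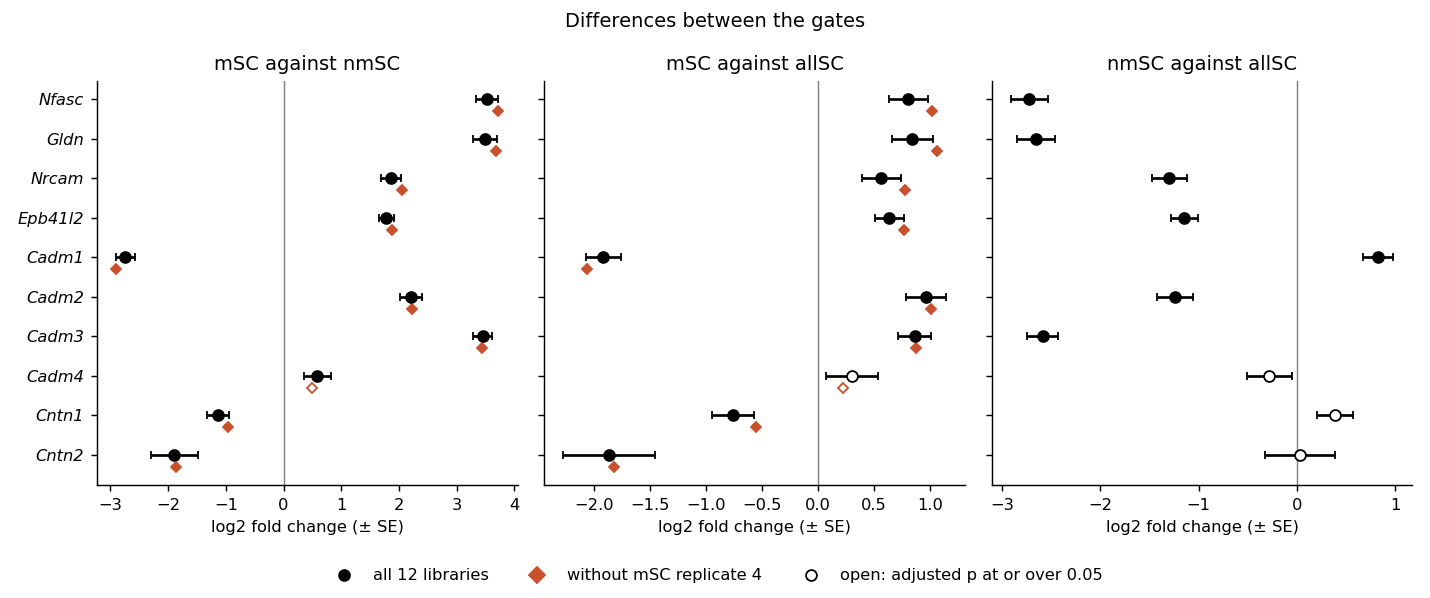
Log2 fold change of each gene between gates with its SE (black circles, fit over 12 libraries) and without mSC replicate 4 (red diamonds), each contrast with its own horizontal axis. Open symbols have an adjusted p at or over 0.05; without mSC replicate 4 the values of Nfasc, Gldn, Nrcam and Epb41l2 lie farther from 0 and Cadm4 becomes open in the comparison of mSC with nmSC.

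Where the mixture lies between the enriched gates can be read from the mean CPM, with nmSC at 0% and mSC at 100%. The position of allSC was 53.2% for Nfasc, 51.5% for Gldn, 55.3% for Nrcam, 49.6% for Epb41l2, 50.5% for Cadm3 and 51.4% for Cadm1. It was lower for Cadm4 (43.6%), Cntn1 (42.8%), Cadm2 (38.0%) and Cntn2 (2.0%). These positions rest partly on mSC replicate 4. Within mice 1 to 3 that of Nfasc was 43.3% to 46.9% and that of Gldn 43.5% to 45.8%, while in mouse 4 they were 99.8% and 100.7%. For Cntn2 the values of single mice ran from -172.0% to 59.1%, and for Cadm4 from 5.9% to 648.7%. The positions of these genes were therefore not determined.

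The order of the members by level also changed between the gates. Per kilobase of exon union, Gldn (177 ± 50.6 RPKM, SD, n = 4) and Epb41l2 (172 ± 25.4) led in mSC and overlapped with each other. Cadm4 (35.7), Nrcam (26.1), Nfasc (20.5) and Cadm3 (12.5) followed, each overlapping with the next in this order, and below them Cadm2 (5.66), Cntn1 (3.95), Cadm1 (3.61) and Cntn2 (0.0564), of which only Cntn1 and Cadm1 overlapped. In nmSC Epb41l2 was first alone (50.01 ± 7.23 RPKM). Cadm1 (24.0) and Cadm4 (23.7) overlapped in the next places, followed by Gldn (15.7), Cntn1 (8.73), Nrcam (7.18), Nfasc (1.78), Cadm2 (1.22), Cadm3 (1.14) and Cntn2 (0.213), with overlaps between Cntn1 and Nrcam, between Nfasc and Cadm2, and between Cadm2 and Cadm3. Cadm1 thus stood ninth in mSC and second in nmSC. With mean transcript length, Epb41l2 led in every gate without overlap and Cadm1 was eighth in mSC and second in nmSC, so the change of place for Cadm1 holds under both lengths.

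The members were also tested for differences among the 4 mice, with the gate in the model. No member passed (0 of 10, edgeR adjusted p = 0.997 for each), against 0.0538% of all tested genes. At an unadjusted p under 0.05 there was 1 member, Cadm4 (0.0257), which in allSC ranged from 36.3 CPM in mouse 1 to 97.4 CPM in mouse 4.

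Genes that act with the members were described from 4 lists: perinodal Schwann cell genes, other paranodal and internodal genes, axonal partners, and relatives of the members. Their counts are to be read beside the 20.4% of all tested genes that were higher and the 20.2% that were lower in mSC. Those shares are of the main fit, and counts under other settings have their own background. With library size alone 1443 of the 18597 tested genes were higher and 10421 lower in mSC. Without the 50 top genes these were 2049 and 7693, and with the mouse as a block 3626 and 3547. Of 14 tested perinodal genes (15 in the list), 3 were higher in mSC than in nmSC, 3 lower, and 8 did not pass, with a median log2 fold change of 0.17, so the shares in both directions were near those of all tested genes. With library size alone 8 were lower, and without the 50 top genes 5. Utrn and Dag1, of the dystroglycan complex that links Schwann cells to the basal lamina, were at 1.91 (adjusted p = 3.69e-10) and 0.96 (0.000165) in the edgeR test, and Msn, a microvillar linker of the ERM family, at 0.84 (6.01e-05). The syndecan gene Sdc4 (-1.24, adjusted p = 6.14e-08), Bmp1, which encodes a protease that releases gliomedin (-1.04, 1.82e-05), and the ERM gene Ezr (-0.75, 4.19e-05) were lower. Scaled by library size alone, Msn no longer passed (0.28, adjusted p = 0.0937), and Dag1 was at 0.41 (adjusted p = 0.0498).

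Of 18 tested paranodal and internodal genes (19 in the list), 11 were higher in mSC, 2 lower and 5 did not pass, and the median was 0.63. Cd9, a tetraspanin of paranodes, rose from 803 ± 66.8 CPM (SD, n = 4) in nmSC to 7167 ± 2265 CPM in mSC (3.16 on the log2 scale, edgeR adjusted p = 3.85e-11). Mag, the myelin-associated glycoprotein of the inner membrane, was at 2.00 (1.78e-10) and Cldn19, the claudin of Schwann cell autotypic tight junctions, at 1.52 (5.20e-08). The membrane scaffold genes Mpp1 (-2.48, adjusted p = 5.16e-08) and Mpp2 (-1.45, 0.0329) were lower, both at low levels, with 22.4 and 2.72 CPM in nmSC. Their relatives Mpp5 and Mpp6, named here although outside the rule for named genes, were higher, at 1.17 and 1.14. With library size alone the list had 7 higher and 5 lower.

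Of 13 tested genes that encode axonal partners (15 in the list), 1 was higher in mSC, 9 were lower and 3 did not pass, with a median of -0.93. With the mouse as a block 10 were lower. Adam23, a partner of Lgi proteins, was at 23.1 ± 1.08 CPM (SD, n = 4) in mSC and 130 ± 25.7 CPM in nmSC (-2.49, edgeR adjusted p = 1.78e-10). The sodium channel gene Scn9a (-1.76, 2.46e-06) and the nodal spectrin gene Sptbn4 (-1.85, 0.00739) were lower too, at means of 10.3 and 1.14 CPM in nmSC. Sptbn4 was near the floor, at a mean of 0.298 CPM in mSC. It had 1 to 21 counts over all libraries, so its lowest values were under the 3 counts taken as detected. The juxtaparanodal potassium channel gene Kcna2 was higher (0.84, adjusted p = 1.65e-05), at 229 CPM in mSC and 127 CPM in nmSC, but missed the threshold with library size alone (0.28, adjusted p = 0.0594). The summed neuronal markers overlapped between mSC and nmSC, as given above, but single genes of this set differed. Syn1 was higher in mSC (1.53, edgeR adjusted p = 0.0129), Rbfox3 was lower (-1.365, 0.0497), and 3 did not pass. With the mouse as a block 1 was higher and 0 were lower.

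Among 12 tested relatives of the members (13 in the list), 0 were higher in mSC, likewise at an unadjusted p under 0.05 and with DESeq2, 6 were lower and 6 did not pass, with a median of -0.75. With the mouse as a block 5 were lower, with library size alone 12, and with library size less the 50 top genes 11. L1cam, the family member that Schwann cells use before myelination, was at 8.71 ± 3.19 CPM (SD, n = 4) in mSC and 163 ± 19.2 CPM in nmSC (-4.20 on the log2 scale, edgeR adjusted p = 1.28e-11), opposite to Nfasc and Nrcam of the same family. Its relative Chl1 was at -2.74 (2.12e-11). Epb41l3, a relative of Epb41l2, was at 106 ± 17.2 CPM in mSC and 281 ± 38.9 CPM in nmSC (-1.41, 9.88e-08), again opposite to the member. For all 4 lists the median of all tested genes in this comparison was -0.16.

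**Figure D5:**
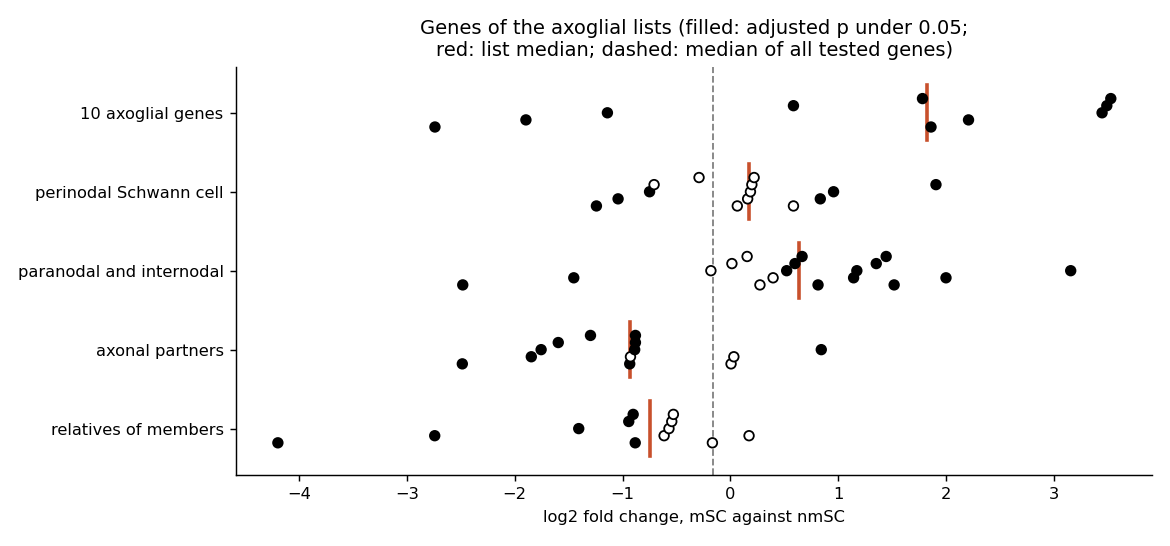
Log2 fold change of mSC against nmSC for each tested gene of the members and the 4 lists (horizontal axis), with filled points for an adjusted p under 0.05. Red lines are list medians and the dashed line is the median of all 18597 tested genes; 9 of 13 axonal partners and 6 of 12 relatives are lower in mSC, and 11 of 18 paranodal and internodal genes are higher.

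The genes whose pattern was most like that of 2 members were found among 9396 tested genes with a mean of at least 10 CPM, by Pearson's r of log2(CPM + 1) over the 12 libraries. For Nfasc these were Prrg3 (r = 0.997), Scd1 (0.997) and Mme (0.996), at 487, 920.3 and 953 CPM in mSC and 44.6, 84.1 and 28.4 CPM in nmSC. For Cadm1 they were Fbxo7 (0.997), Cenpa (0.996) and the proliferation marker Mki67 (0.995). Mki67 was at 19.99 CPM in mSC, 114 in allSC and 228 in nmSC, beside 37.7, 141 and 251 CPM of Cadm1. The 12 points share 3 gates and 4 mice, so these values describe a likeness mainly of the order of the gates.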

How the data were processed

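The authors trimmed the reads of the Smart-Seq2 libraries, aligned them with STAR and deposited featureCounts counts per gene without normalisation. The submitters' processing notes name STAR 2.6.1c and GRCm38.p5, while the paper's methods name a human build, although the identifiers are those of mouse. Options for strand, multi-mapping and overlapping genes are not given in the sources used here, and the library kit does not mark strand. Columns were matched to samples by title, and 0 columns were left unmatched.

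Symbols, positions and exon lengths came from GENCODE M21 (GRCm38), which matched 25664 of 25700 identifiers, and promoters from RefSeq. Counts were normalised by TMM, filtered with filterByExpr by gate and tested with the quasi-likelihood test of edgeR 4.0.16 (limma 3.58.1, R 4.3.3) in 1 model of the gate over 12 libraries, with Benjamini-Hochberg adjustment over all tested genes and a threshold of 0.05. SEs are of the log2 fold change. RPKM is normalised CPM per kilobase of exon union. Ratios within libraries used counts with 0.5 added. A mean ± SD is over 4 libraries unless n is given. The fit was tested on simulated counts. Alternatives were DESeq2 1.42.0 (Wald test, and its size factors in edgeR), library size, either whole or less the 50 most counted genes, other filters, only the gates compared, the mouse as a block, thinned counts, and each library left out. Removal of the trend with transcript length, within gates, was chosen after the data were seen.

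The mouse numbers in the labels pair the libraries, in which the 3 libraries of a number carry the same subject. Deviations of same-numbered libraries from their gate means correlated between -0.0794 and 0.153. No libraries of a gate were duplicates (chi-square over its degrees of freedom between 4.03 and 95.7). Floors cover counting error only, while the SEs come from the quasi-likelihood fit and include the spread among libraries of a gate.

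The members and gene lists were chosen with earlier results of these data known. Named were all members, from each list up to 3 genes in each direction with the largest log2 fold change among those that passed, the marker genes (1 of them is not reported here), and the 3 genes most like the members with the largest increase and decrease. The comparisons of gates share libraries, and their counts are not independent.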

Additional observations from a re-analysis of the deposited data

Results flagged for a closer look

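No member was flagged among its 30 groups of 4 libraries. Among 84 groups of members and named genes, 7 had a library whose gap to the others exceeded Dixon's 95% limit for 4 values (0.829 of the range), and chance alone flags about 1 in 20 such groups. The mSC library of mouse 4 held 4 of them: Cd9 was at 10530 CPM there against 5615 to 6451 in the other mSC libraries, Dag1 at 1318 against 2431 to 2591, Msn at 319 against 487 to 501, and Chl1 at 11.6 against 16.2 to 17.1. In nmSC, Adam23 was at 168 CPM in mouse 4 against 115 to 119, and Mpp1 at 27.5 in mouse 3 against 20.6 to 20.9. In allSC, Mag was at 1514 CPM in mouse 1 against 1316 to 1322.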

How the results depend on the processing

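Over the 18 alternatives of each of the 10 members in 3 comparisons, 508 values kept their direction and side of the threshold, 23 lost the call, 2 gained it and 6 changed sign, while DESeq2 gave no adjusted p for Cntn2 in nmSC against allSC. All 6 changes of sign were in Cadm4 and Cntn2, where the value was not called. Against allSC, Cadm4 in mSC was -0.013 by library size alone. Leaving out each library in turn, Cadm4 in nmSC against allSC ran from -0.475 to 0.01 (log2), and Cntn2 from -0.195 to 0.365. Library size alone moved the median of all tested genes between mSC and nmSC, on the log2 scale, from -0.163 to -0.728. It called 11864 genes in place of 7540, with 1443 higher and 10421 lower in mSC in place of 3792 and 3748, and library size without the 50 top genes gave 2049 and 7693. For mSC against allSC the split was 415 and 3985 by library size, 641 and 2755 without the 50 top genes, 2093 and 1478 by DESeq2 size factors, in place of 1630 and 1636, and 3 members were higher in place of 6. For nmSC against allSC, 2951 genes were called by library size (2207 higher and 744 lower in nmSC) and 2899 in a model of these gates alone, in place of 1928 (526 and 1402), and 2 members were higher in nmSC under both, Cntn1 being added. Without the 50 top genes the split was 1224 and 940. In the lists, library size alone gave 8 lower perinodal genes, 7 higher and 5 lower paranodal and internodal genes, 0 higher axonal partners and 12 lower relatives, and without the 50 top genes these were 5 lower perinodal genes and 11 lower relatives. Leaving out single libraries gave 1 to 2 lower paranodal and internodal genes. With the mouse as a replicate block, Nrcam in mSC against allSC lost its call (0.54, adjusted p = 0.0560), and no other call of a member changed. With the trend with transcript length removed, which was chosen after seeing the data, 7 members were higher and 3 lower in mSC than in nmSC (Nfasc 3.49, Gldn 3.46, Nrcam 1.83, Cntn1 -1.18, Cadm4 0.56 with adjusted p = 0.0392). The cause of these changes was not tested. At this depth, differences in genes at or under 3 counts per library were not detectable, and among the members Cntn2, with 4 to 43 counts, is the nearest to that limit.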
